A study of Homo sapiens with 9 samples.

Results

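The clade B serpins are the intracellular branch of the serpin superfamily of protease inhibitors. The genes described here are SERPINB1, SERPINB2, SERPINB3, SERPINB4, SERPINB5 (maspin), SERPINB7, SERPINB8, SERPINB9 and SERPINB13, and every probe set annotated to one of these 9 symbols was taken, among 54675 probe sets and 19775 named genes. For 8 of the 9 genes this gave 22 probe sets, of which 21 name a single gene and 1 names SERPINB3 and SERPINB4 together. SERPINB2, the plasminogen activator inhibitor PAI-2, was not analysed here because no probe set in the annotation used carries its symbol. Of the 8 measured genes, 7 passed the filter on dim signals and were tested. SERPINB9 did not pass it.

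Total RNA was measured on Affymetrix arrays in 3 human breast epithelial lines of the MCF-10A series, a family of lines derived from an immortalised breast epithelial line and transformed with activated HRAS. By their labels MII is MCF-10AT1Kcl2 and represents carcinoma in situ, MIII is MCF-10A1h and represents carcinoma, and MIV is MCF-10A1a and represents metastatic carcinoma. All were untreated and grown in the same serum-containing medium with insulin, cholera toxin, epidermal growth factor and hydroxycortisone, and each had 3 arrays that the labels call biological replicates. The series was set up to list genes lost in MIV, but each disease state is represented by 1 line, so line and stage cannot be told apart. Whether the arrays of a line came from separate cultures is not stated, so each p-value covers only the variation from array to array, which may be technical.

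A serpin presents a flexible reactive centre loop as bait. When the target protease cuts the loop, the serpin snaps into a new fold and traps the enzyme in a covalent complex. Clade B members lack a classical signal peptide and act mostly inside cells, where they are thought to protect the cell from its own or a neighbour's proteases. Many are typical of squamous and basal epithelia, and most of their genes lie in a cluster on the long arm of chromosome 18, while SERPINB1 and SERPINB9 lie on the short arm of chromosome 6. Maspin became known as a gene that is often silenced in breast cancer and that restrained tumour growth and motility in experimental models.

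The tested members fell into 3 patterns. SERPINB3, SERPINB4 and SERPINB13 were high in MII and low in both MIII and MIV. SERPINB1 and SERPINB7 were lower in MIII than in both other lines, and SERPINB5 was lowest in MIII too, by less than 2-fold. SERPINB8 differed by less than 2-fold in every comparison. A gene was called when its limma adjusted p, taken over all 12594 tested genes, was under 0.05 and its change was at least 2-fold on the log2(signal + 18.3) scale. In MIII against MII, 5 members were called lower and 0 higher, where 5.55% of all tested genes were called lower and 6.17% higher. In MIV against MII, 4 were lower and 0 higher, beside 5.18% and 2.96% of all genes. In MIV against MIII, 2 were higher and 0 lower, beside 4.95% and 7.79%. The median log2 change of the 7 members was -1.84, -1.17 and 0.15 in that order, and that of all genes -0.02, -0.03 and -0.01. SERPINB4 and SERPINB13 passed the filter through their MII arrays alone, so they had to be lower elsewhere, and these counts and medians only describe the 7. Without the fold minimum 7, 7 and 3 members passed in the same order, where 47.2%, 42.2% and 51.9% of all genes did. The comparisons share arrays pairwise and are not independent.

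**Figure D1:**
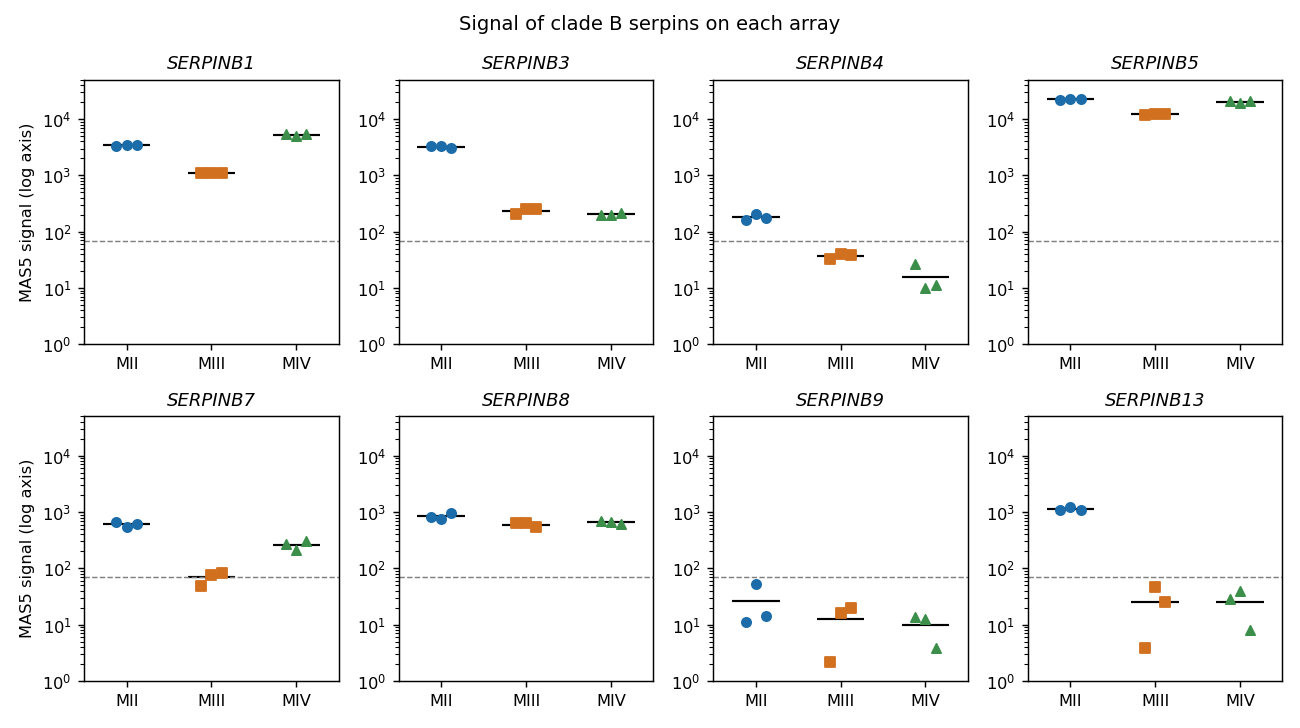
MAS5 signal of each measured clade B serpin on its brightest probe set, on a log axis, with 1 point per array, a bar at the mean of the 3 arrays of a line, and a dashed line at the pooled median of 69.3. SERPINB3, SERPINB4 and SERPINB13 stand high in MII only, SERPINB1, SERPINB5 and SERPINB7 dip in MIII, and SERPINB9 lies under the dashed line on all arrays; levels are to be compared between lines within a panel, not between panels.

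The arrays of MIII also differed from the others in cell type markers. The summed signal of 8 measured breast epithelial markers was 155998 to 162842 in MII, 106831 to 110468 in MIII and 154432 to 166732 in MIV. Of these 8, 7 were above the pooled median of 69.3 on every array, and KRT19 was below it on every array. The adhesion molecule EPCAM averaged 17233 ± 230.1 over the MII arrays, 3737 ± 74.5 over those of MIII and 18774 ± 2385 over those of MIV (SD, n = 3 per line), while of the basal keratins KRT5 had line means between 25069 and 26309 and KRT14 was lower in each successive line, at 2155 ± 85.4, 957 ± 84.5 and 137 ± 20.4. The sum of 9 fibroblast markers was 1101 to 1172 in MII, 6529 to 6844 in MIII and 759 to 852 in MIV, with 7 of 9 above the median on all MIII arrays against 3 in MII and 2 in MIV. These markers did not all move together. COL3A1, DCN, LUM, POSTN and THY1 were called higher in MIII than in MII. FAP was lower there by less than 2-fold (-0.72 ± 0.11) and COL1A1 differed little (-0.18 ± 0.18). COL3A1, LUM and POSTN exceeded the median on MIII arrays only, so they had to be higher in MIII. THY1 exceeded it on 1 MII, 3 MIII and 0 MIV arrays. It passed the filter only with its MIII arrays, so its call only describes it. The fibroblast markers COL1A2 and PDGFRB were below the median on average in every line. Of 7 measured leukocyte and endothelial markers, 3, 2 and 2 were above the median on all arrays of MII, MIII and MIV. The monocyte marker CD14 averaged 1490 ± 58.3, 594 ± 29.9 and 323 ± 39.4 in these lines, and the endothelial PECAM1 174 ± 48.0, 251 ± 33.1 and 306 ± 50.8. The defining genes PTPRC, VWF, CDH5 and KDR were below it on average in every line, and the sum of the 7 was 1690 to 1955 in MII, 889.7 to 1093 in MIII and 713 to 779.6 in MIV. In such bulk RNA, fewer cells of a type and less RNA per cell cannot be told apart. The part of these marker differences in the serpin results was not tested.

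The first members are inhibitors from the chromosome 18 cluster. SERPINB3 and SERPINB4 are the squamous cell carcinoma antigens, near-identical neighbours that differ in their reactive loops. SERPINB3 inhibits papain-like cysteine proteases such as cathepsins L, K and S, and SERPINB4 inhibits chymotrypsin-like serine proteases such as cathepsin G and mast cell chymase. On GRCh38.p14, SERPINB4 spans chr18:63637259-63644256 and SERPINB3 spans chr18:63655197-63661893. The windows around their start sites, from 250 bases before to 50 bases after (RefSeq, minus strand, chr18:63661844-63662143 for SERPINB3 and chr18:63644207-63644506 for SERPINB4), show how alike the pair is. Capitals mark the bases at which they differ.
SERPINB3: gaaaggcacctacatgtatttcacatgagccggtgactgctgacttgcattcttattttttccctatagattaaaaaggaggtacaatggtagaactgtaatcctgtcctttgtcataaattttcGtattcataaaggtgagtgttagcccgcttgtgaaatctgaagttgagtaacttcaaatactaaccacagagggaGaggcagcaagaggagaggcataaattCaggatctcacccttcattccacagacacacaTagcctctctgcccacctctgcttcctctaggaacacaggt
SERPINB4: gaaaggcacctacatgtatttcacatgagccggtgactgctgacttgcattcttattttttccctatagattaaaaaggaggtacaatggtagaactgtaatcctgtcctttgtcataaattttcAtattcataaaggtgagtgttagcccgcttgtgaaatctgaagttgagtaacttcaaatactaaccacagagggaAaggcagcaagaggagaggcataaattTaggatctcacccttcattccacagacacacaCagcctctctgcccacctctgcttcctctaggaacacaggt
The windows are identical at 296 of 300 bases (98.7%). Counted from the 5′ end of the window, with the SERPINB3 base first, the differences are G126A, G201A, C228T and T260C. Such likeness extends to the transcripts, and the assignment of signal to either gene is therefore uncertain.

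SERPINB3 was measured by 2 probe sets of its own. On the brighter, 209719_x_at, the signals were 3276.6, 3380.0 and 3046.2 on the MII arrays, 205.3, 249.0 and 253.4 on the MIII arrays and 199.0, 196.9 and 215.9 on the MIV arrays. All MII arrays lay far above all others, while those of MIII and MIV overlapped. The log2 change was -3.68 ± 0.10 (SE) in MIII against MII (limma adjusted p = 2.80e-12) and -3.87 ± 0.10 in MIV against MII (limma adjusted p = 4.04e-12), which is 12.8-fold and 14.6-fold on the offset scale. Between MIV and MIII it was -0.19 ± 0.10 (limma adjusted p = 0.139). The suffix _x_at marks a probe set that may also bind other transcripts.

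The second probe set of SERPINB3, 209720_s_at, gave 1295.3, 1325.0 and 1365.9 in MII, 69.6, 58.4 and 50.6 in MIII and 90.0, 88.0 and 75.4 in MIV. Here too MII was high on every array. The residual signal in MIII and MIV was close to the pooled median of 69.3, and the MIV arrays were all above the MIII arrays, opposite in order to the other probe set. Over all 54613 probe sets that are no controls, the log2 change was -4.12 ± 0.15 in MIII against MII, -3.71 ± 0.15 in MIV against MII and 0.41 ± 0.15 in MIV against MIII, and the limma adjusted p was 4.73e-10, 2.26e-09 and 0.0831.

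SERPINB4 had 1 probe set of its own, 211906_s_at, with 162.0, 210.0 and 173.0 in MII, 32.5, 40.8 and 38.3 in MIII and 26.7, 9.8 and 11.1 in MIV. It exceeded the pooled median on the MII arrays only, and the MIV arrays were all below the MIII arrays. The log2 change was -1.84 ± 0.31 in MIII against MII (limma adjusted p = 0.000203) and -2.58 ± 0.31 in MIV against MII (limma adjusted p = 1.40e-05). The difference of -0.73 ± 0.31 between MIV and MIII was not called (limma adjusted p = 0.0615), although with an offset of 1 it became -1.31 (limma adjusted p = 0.0417). Signals this dim do not give a firm ratio. The probe set shared by both genes, 210413_x_at, gave 1027.2, 1024.0 and 991.0 on the MII arrays, 149.4, 180.4 and 103.1 on the MIII arrays and 174.8, 148.2 and 165.7 on the MIV arrays, with log2 changes of -2.70 ± 0.16 and -2.51 ± 0.16 against MII. All 4 probe sets of the pair thus had every MII array above every MIII and MIV array.

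SERPINB13, also called headpin, inhibits cathepsins K and L and is typical of differentiating squamous epithelium. It lies at chr18:63587343-63599192. Its window (RefSeq, GRCh38.p14, plus strand, chr18:63587093-63587392) is shown because the gene had signal above the pooled median in MII alone. Capitals mark CG dinucleotides, the sites at which DNA methylation occurs.
SERPINB13: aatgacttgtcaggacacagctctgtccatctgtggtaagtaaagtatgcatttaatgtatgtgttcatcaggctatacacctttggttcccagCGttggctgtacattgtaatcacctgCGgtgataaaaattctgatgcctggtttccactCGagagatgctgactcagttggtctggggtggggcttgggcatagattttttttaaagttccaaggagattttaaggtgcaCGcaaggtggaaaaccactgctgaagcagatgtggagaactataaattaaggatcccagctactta
It holds 4 CG dinucleotides and is 43.7% G or C. That is more than the CG count of 24.5% of 35116 human promoter windows of this length, whose median count is 14.

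On the brightest of its 6 probe sets, 217272_s_at, SERPINB13 gave 1100.9, 1238.4 and 1106.8 in MII, 3.8, 45.8 and 24.9 in MIII and 28.4, 40.1 and 7.9 in MIV. It was above the pooled median on the MII arrays alone, and MIII and MIV overlapped. The log2 change was -4.89 ± 0.37 in MIII against MII (limma adjusted p = 8.83e-08) and -4.81 ± 0.37 in MIV against MII (limma adjusted p = 1.65e-07). Between MIV and MIII it was 0.07 ± 0.37 (limma adjusted p = 0.886), both sides being under the pooled median. With such dim signals the size of the change is loose: in MIII against MII it was -5.996 with an offset of 1 and -2.56 with the mean of all probe sets.

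The other SERPINB13 probe sets divided into those with signal in MII and those without. On 211361_s_at the arrays read 737.6, 717.9 and 698.0 in MII, 1.7, 1.0 and 2.0 in MIII and 1.6, 2.1 and 5.5 in MIV. On 216258_s_at and 211362_s_at the MII means were 260.3 ± 42.5 and 236 ± 32.5 (SD, n = 3), and all MIII and MIV arrays were below the pooled median. Their log2 changes against MII were -2.57 ± 0.31 and -2.42 ± 0.37 in MIII and -3.38 ± 0.31 and -2.76 ± 0.37 in MIV. The suffix-free probe sets 215817_at and 216257_at were below the pooled median on all 9 arrays and show no order of the lines.

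SERPINB5, or maspin, keeps the serpin fold but is generally regarded as a non-inhibitory member, and it is expressed by basal and myoepithelial cells of the breast. Of the measured members on chromosome 18 it comes first, at chr18:63476958-63505085. Its start-site window (RefSeq, GRCh38.p14, plus strand, chr18:63476708-63477007) is shown beside that of SERPINB13, with CG dinucleotides again in capitals.
SERPINB5: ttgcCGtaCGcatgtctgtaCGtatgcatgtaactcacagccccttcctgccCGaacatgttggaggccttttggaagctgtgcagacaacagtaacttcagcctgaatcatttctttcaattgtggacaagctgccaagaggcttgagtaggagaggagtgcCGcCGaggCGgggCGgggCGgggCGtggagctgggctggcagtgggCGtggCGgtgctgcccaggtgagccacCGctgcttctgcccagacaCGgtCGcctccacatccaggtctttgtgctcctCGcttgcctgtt
This window holds 16 CG dinucleotides and is 59.7% G or C, and 52.5% of the 35116 windows hold fewer.

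The signal of SERPINB5 on 204855_at was 21934.2, 22276.0 and 22908.7 in MII, 11838.2, 12305.0 and 12361.0 in MIII, and 21196.3, 19334.9 and 20907.1 in MIV. The lines did not overlap, and MIII was the low one. The MIV mean of 20479 ± 1002 (SD, n = 3) stood beside 22373 ± 494 in MII. The log2 change was -0.88 ± 0.05 in MIII against MII (limma adjusted p = 1.98e-09) and 0.75 ± 0.05 in MIV against MIII (limma adjusted p = 9.47e-09), both short of 2-fold and so not called. Between MIV and MII it was -0.13 ± 0.05 (limma adjusted p = 0.0366), and over the alternative settings that adjusted p ranged from 0.00146 to 0.185. None of the lines lacked maspin signal.

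The second SERPINB5 probe set, 1555551_at, was dim, with 144.2, 93.7 and 104.1 in MII, 77.0, 65.5 and 49.9 in MIII and 90.1, 82.1 and 103.6 in MIV. It had the same order of means, with MII and MIV overlapping and MIII lowest. Its log2 changes were -0.68 ± 0.26 in MIII against MII and 0.43 ± 0.26 in MIV against MIII, for which limma gave an adjusted p of 0.0973 and 0.319 in the fit to all probe sets.

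SERPINB7, also called megsin, is an inhibitor of the upper epidermis whose loss causes a palmoplantar keratosis. It lies at chr18:63753057-63805370. Its single probe set, 206421_s_at, gave 657.7, 532.2 and 616.1 in MII, 48.2, 75.8 and 84.0 in MIII and 267.5, 210.3 and 301.1 in MIV. The 3 lines did not overlap, and MIV was intermediate. SERPINB7 fell by 2.84 ± 0.19 on the log2 scale in MIII against MII (limma adjusted p = 2.54e-08), rose by 1.68 ± 0.19 in MIV against MIII (limma adjusted p = 4.73e-06) and was lower by a log2 change of -1.17 ± 0.19 in MIV against MII (limma adjusted p = 0.00021). The last of these lay close to the 2-fold minimum, between -1.27 and -1.03 over the alternative settings. It was the only tested member called in all 3 comparisons.

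A further pair inhibits serine proteases of immune cell granules. SERPINB1 inhibits neutrophil elastase, proteinase 3 and cathepsin G, and SERPINB9 inhibits granzyme B, the killer cell protease that triggers apoptosis. Both lie on chromosome 6, at chr6:2832332-2841863 and chr6:2887270-2903309. The window of SERPINB1 (RefSeq, GRCh38.p14, minus strand, chr6:2841814-2842113) is shown because it is the CG-rich end of the tested members.
SERPINB1: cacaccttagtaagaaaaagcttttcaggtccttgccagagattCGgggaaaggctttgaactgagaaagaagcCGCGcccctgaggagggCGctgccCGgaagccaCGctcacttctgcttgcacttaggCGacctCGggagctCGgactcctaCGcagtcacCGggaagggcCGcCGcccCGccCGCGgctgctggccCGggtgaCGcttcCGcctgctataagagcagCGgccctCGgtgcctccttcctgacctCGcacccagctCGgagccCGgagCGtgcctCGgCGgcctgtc
It holds 27 CG dinucleotides and is 65.7% G or C, and 71.8% of all windows hold fewer. The windows of SERPINB3, SERPINB4, SERPINB8 and SERPINB9 hold 3, 2, 9 and 35. Those listed for SERPINB7 hold 2, 0 and 1, fewer than that of SERPINB13. Any link between these counts and the signals was not tested.

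On 212268_at the SERPINB1 signals were 3356.3, 3530.2 and 3441.7 in MII, 1093.1, 1107.7 and 1086.1 in MIII and 5478.1, 4914.6 and 5391.1 in MIV. The lines did not overlap, with MIII lowest and MIV highest. SERPINB1 fell by 1.64 ± 0.06 on the log2 scale in MIII against MII (limma adjusted p = 2.77e-11) and rose by 2.24 ± 0.06 in MIV against MIII (limma adjusted p = 1.20e-12), a 3.11-fold and a 4.73-fold change. The difference of 0.61 ± 0.06 between MIV and MII was short of 2-fold (limma adjusted p = 1.29e-06).

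The other SERPINB1 probe sets gave the same order of means. On 213572_s_at the arrays read 1646.2, 1786.5 and 1788.8 in MII, 658.5, 582.2 and 637.1 in MIII and 2454.7, 2317.4 and 2333.9 in MIV. On 228726_at the means of MII, MIII and MIV were 688 ± 9.4, 301 ± 24.6 and 1006 ± 175 (SD, n = 3). On both, the 3 lines did not overlap. The dim 239213_at gave 66.3, 66.0 and 35.9 in MII, 8.2, 13.7 and 40.0 in MIII and 96.5, 70.9 and 75.7 in MIV, where the arrays of MII and MIII overlapped. The log2 change in MIV against MIII was 1.89 ± 0.07, 1.67 ± 0.12 and 1.43 ± 0.36 on these 3 (limma adjusted p = 3.35e-10, 1.77e-07 and 0.0113, all probe sets fitted).

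SERPINB9 was not measured above the pooled median on any array by any of its 3 probe sets. On 209723_at the signals were 11.1, 53.0 and 14.1 in MII, 2.2, 15.8 and 19.4 in MIII and 13.7, 12.4 and 3.8 in MIV, and on 209722_s_at and 242814_at the highest of 9 values were 21.0 and 43.5. Values this dim give no order of the lines and do not show that the transcript is absent.

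SERPINB8 inhibits the proprotein convertase furin in vitro and has been linked to adhesion between keratinocytes. Of the members on chromosome 18 it comes last, at chr18:63970081-64019779. On 206034_at it gave 801.8, 749.6 and 970.9 in MII, 629.8, 634.7 and 534.1 in MIII and 695.8, 677.6 and 623.3 in MIV. MII was the highest on every array, while MIII and MIV overlapped. Its log2 change was -0.47 ± 0.11 in MIII against MII (limma adjusted p = 0.00258), -0.32 ± 0.11 in MIV against MII (limma adjusted p = 0.0286) and 0.15 ± 0.11 in MIV against MIII (limma adjusted p = 0.275), none of which reached 2-fold. Its dim probe set 1554616_at had means of 108 ± 7.3, 91.8 ± 29.8 and 93.1 ± 3.4 in MII, MIII and MIV (SD, n = 3), where MIII overlapped both other lines.

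**Figure D2:**
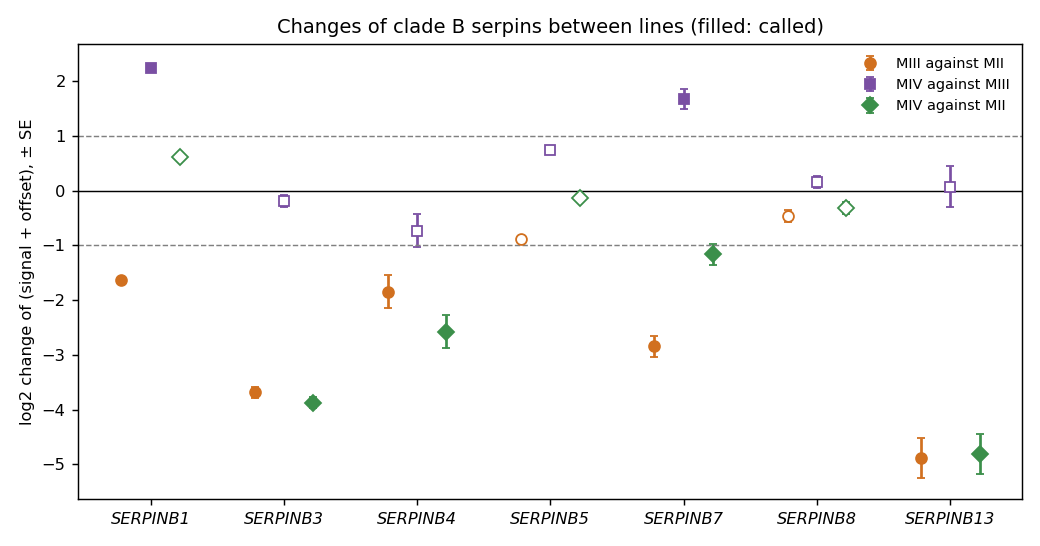
Log2 change of log2(signal + 18.3), with its standard error from limma, for the 7 tested clade B serpins in each comparison; filled symbols are called genes and dashed lines mark 2-fold. SERPINB13 and SERPINB3 have the lowest values against MII, at -4.89 and -3.87, and SERPINB1 and SERPINB7 are the filled symbols above 0, both for MIV against MIII.

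In MIII against MII and in MIV against MII the arrays of the lines compared did not overlap for any of the 7 tested members, as was so for 55.3% and 50.7% of all tested genes. In MIV against MIII they did not overlap for 4 members, against 58.8% of all genes. With 3 arrays against 3 the exact two-sided permutation test cannot go below p = 0.1, which it gave wherever arrays did not overlap. 

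**Figure D3:**
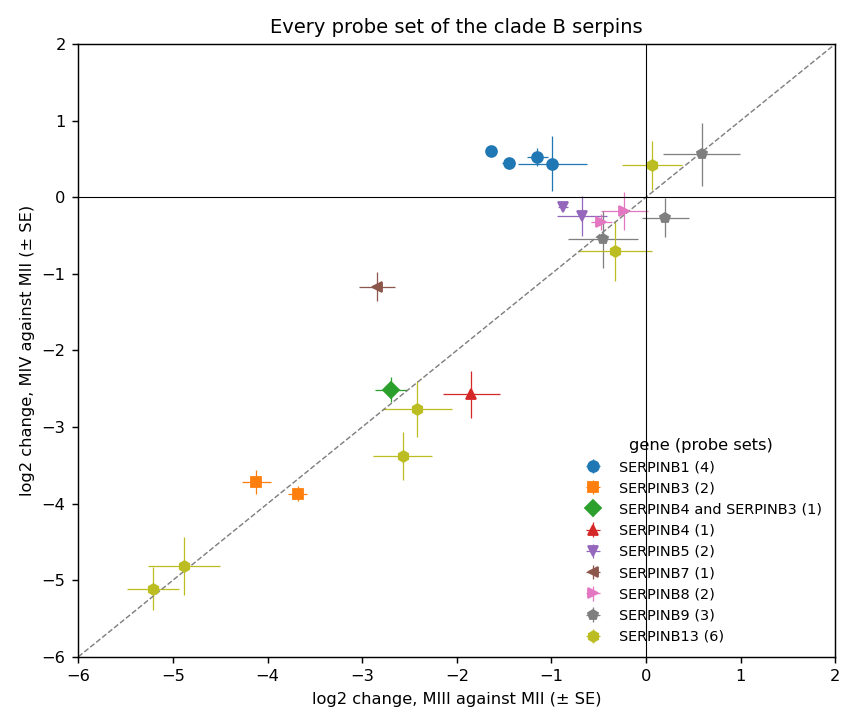
Each point is 1 of the 22 probe sets, with its log2 change in MIII against MII on the horizontal axis and in MIV against MII on the vertical axis, and bars of 1 standard error; both axes share the MII arrays. Probe sets of SERPINB1, SERPINB5 and SERPINB7 lie above the dashed line of equal change, and 211906_s_at of SERPINB4 (-1.84 and -2.58) and 216258_s_at of SERPINB13 (-2.57 and -3.38) lie below it.

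Motifs were then searched in the start-site windows on both strands, with N for any base. The AP-1 sequence TGANTCA was found once in the windows of SERPINB13 and SERPINB5, at -87 and -146 bases from the start site, and not in those of SERPINB1, SERPINB3, SERPINB4 and SERPINB9. SERPINB8 held 2 matches, and 2 of the 3 windows listed for SERPINB7 held 2 each. Of all 35116 windows, 7.71% hold it. The grainyhead core AACNNGTT was found in the SERPINB5 window alone among the members (3.52% of all), and the ETS sequence CCGGAA in those of SERPINB1 and SERPINB8 (17.2% of all). The STAT sequence TTCNNNGAA was found in SERPINB1, SERPINB8 and 1 window of SERPINB7 (7.66% of all). The windows of SERPINB3 and SERPINB4 held none of these 4. No match overlapped another motif. A match describes letters and not a bound site.

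The other clade B genes fixed for comparison were SERPINB6, SERPINB10, SERPINB11 and SERPINB12. The last 3 were too dim to be tested and SERPINB6 was not analysed here. Serpins of other clades, which are mostly secreted, had the opposite direction at the first comparison. Of 13 listed, 8 were tested, and 4 with a probe set were too dim. In MIII against MII 7 of the 8 were higher and 0 lower (median 1.44), beside 6.17% and 5.55% of all tested genes. The shares of all genes given above for each comparison also stand beside the later counts. SERPINA1, which inhibits neutrophil elastase in plasma, rose by 4.74 ± 0.11, SERPINE2, which inhibits thrombin and plasminogen activators at the cell surface, by 3.76 ± 0.06, and the antichymotrypsin SERPINA3 by 1.65 ± 0.06. The protein C inhibitor SERPINA5 rose from a signal of 93.1 ± 32.3 to 292 ± 56.3 (SD, n = 3). In MIV against MIII, 4 of the 8 were lower and 0 higher (median -1.39), namely SERPINE2 (-3.22 ± 0.06), SERPINA1 (-2.76 ± 0.11), SERPINF1 (-2.18 ± 0.37) and the collagen chaperone SERPINH1 (-1.82 ± 0.08). SERPINF1 was above the pooled median on all MIII arrays, on 0 MII arrays and on 1 MIV array. It passed the filter through its high MIII arrays, so its place in both counts only describes it. SERPINA3, SERPINA1 and SERPINI1 were higher in MIV than in MII, by 2.32 ± 0.06, 1.98 ± 0.11 and 1.23 ± 0.13, and 0 were lower (median 0.54).

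Of 15 proteases known as targets of clade B serpins or of PAI-2, 9 were tested. The granule proteases CTSG, ELANE, PRTN3, GZMB, GZMH and GZMM, among them the targets named above for SERPINB1 and SERPINB9, were too dim to be tested. In MIII against MII, the plasminogen activators PLAT (2.58 ± 0.07) and PLAU (1.67 ± 0.12) rose and the cathepsin CTSV fell by 3.49 ± 0.05, with a median of 0.78 over the 9. CTSV, a lysosomal protease of epidermis and thymus, averaged 14226 ± 117, 1254 ± 42.6 and 7893 ± 249 over the MII, MIII and MIV arrays (SD, n = 3), the order seen for SERPINB7. From MIII to MIV, CTSV was the 1 gene higher (2.64 ± 0.05) and 4 were lower (median -0.73), among them CTSS (-1.58 ± 0.32), PLAT (-1.55 ± 0.07) and CTSL (-1.31 ± 0.07). In MIV against MII, PLAU (1.95 ± 0.12) and PLAT (1.02 ± 0.07) were higher and CTSS lower (-1.61 ± 0.32), with a median of -0.36.

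Other protease inhibitors of epithelia, which belong to the Kunitz, Kazal, cystatin, whey acidic protein and macroglobulin families, were measured next. Of 11 tested, 6 were lower in MIII than in MII and 0 higher (median -1.30), led by A2ML1 (-5.75 ± 0.25), SPINK6 (-3.37 ± 0.19), CST6 (-2.35 ± 0.12) and WFDC2 (-2.34 ± 0.10). In MIV against MII, 4 were lower and 0 higher (median -0.52): WFDC2 (-5.25 ± 0.10), A2ML1 (-3.99 ± 0.25), SPINK6 (-3.74 ± 0.19) and SLPI (-1.48 ± 0.05). SPINK6, an inhibitor of kallikreins, was thus high in MII and low in both other lines, as SERPINB3 was. Its signals were 1005 ± 84.5, 81.5 ± 14.7 and 58.8 ± 14.1 (MII, MIII, MIV, SD, n = 3). SPINK6 was above the pooled median on 3 MII, 2 MIII and 0 MIV arrays. It passed the filter only with its high MII arrays, so its place in both counts only describes it. From MIII to MIV, CST6 (2.81 ± 0.12), A2ML1 (1.76 ± 0.25) and SPINT1 (1.56 ± 0.08) were higher and 2 were lower, WFDC2 the more so (-2.91 ± 0.10), with a median of -0.09.

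Of 23 listed squamous epithelium genes, with which these serpins are usually expressed, 17 were tested, and 4 with a probe set were too dim. In MIII against MII 12 were lower and 3 higher (median -2.04). The largest changes were those of SPRR1B, a precursor of the cornified envelope (-4.52 ± 0.10), the keratins KRT13 (-4.28 ± 0.27) and KRT16 (-4.25 ± 0.12), and SPRR1A (-3.62 ± 0.19). Of the 17 genes, 4 exceeded the pooled median on MII arrays only, KRT13 among them, and had to be lower elsewhere. S100A8 exceeded it on MIII arrays only. CNFN was above it on 3 MII, 0 MIII and 1 MIV arrays, and SBSN on 1, 3 and 1. CNFN passed the filter only with its MII arrays and SBSN only with its MIII arrays, so their places in these counts only describe them. SBSN was called higher in MIII than in MII although the arrays overlapped. In MIV against MII, 11 were lower and 1 higher (median -2.06), with KRT16 at -4.04 ± 0.12, involucrin (IVL) at -3.30 ± 0.25, LYPD3 at -2.94 ± 0.11 and SPRR1B at -2.91 ± 0.10. Between MIV and MIII the list was divided, 4 higher and 4 lower (median 0.09). The desmosomal cadherin DSG3 (1.77 ± 0.08) and SPRR1B (1.61 ± 0.10) were higher, and S100A8 (-1.75 ± 0.34) and LYPD3 (-1.68 ± 0.11) were lower. KRT13 was also called higher (1.52 ± 0.27), although it was under the pooled median on every array of both lines. S100A8 passed the filter through its MIII arrays alone and so had to be lower in MIV.

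Of 25 listed transcription factors and DNA methyltransferases that are reported to act on such genes, 22 were tested. In MIII against MII, 7 were lower and 1 higher (median -0.29), led by the grainyhead factors GRHL1 (-3.75 ± 0.10) and GRHL2 (-2.61 ± 0.15), the epidermal factor ZNF750 (-3.69 ± 0.27) and the epithelial ETS factor ELF3 (-3.14 ± 0.08). The 1 gene higher was the third grainyhead factor, GRHL3 (1.22 ± 0.17), named here after its value was seen. ZNF750 and ELF5 exceeded the pooled median on MII arrays only and so had to be lower in the other lines. From MIII to MIV, 6 were higher and 1 lower (median 0.33), with GRHL1 (3.22 ± 0.10), GRHL2 (2.19 ± 0.15), ELF3 (2.03 ± 0.08) and ZNF750 (1.59 ± 0.27) leading. ZNF750 rose from 5.1 ± 2.1 to 52.7 ± 10.5 (SD, n = 3), under the pooled median on every array of both lines, so the size of its change is loose. In MIV against MII, 6 were lower and 1 higher (median -0.27), with ZNF750 (-2.09 ± 0.27), ELF5 (-1.95 ± 0.47) and KLF4 (-1.83 ± 0.08) lower and ETS1 (1.45 ± 0.10) higher. Whether any of these factors bears on the serpins was not tested.

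**Figure D4:**
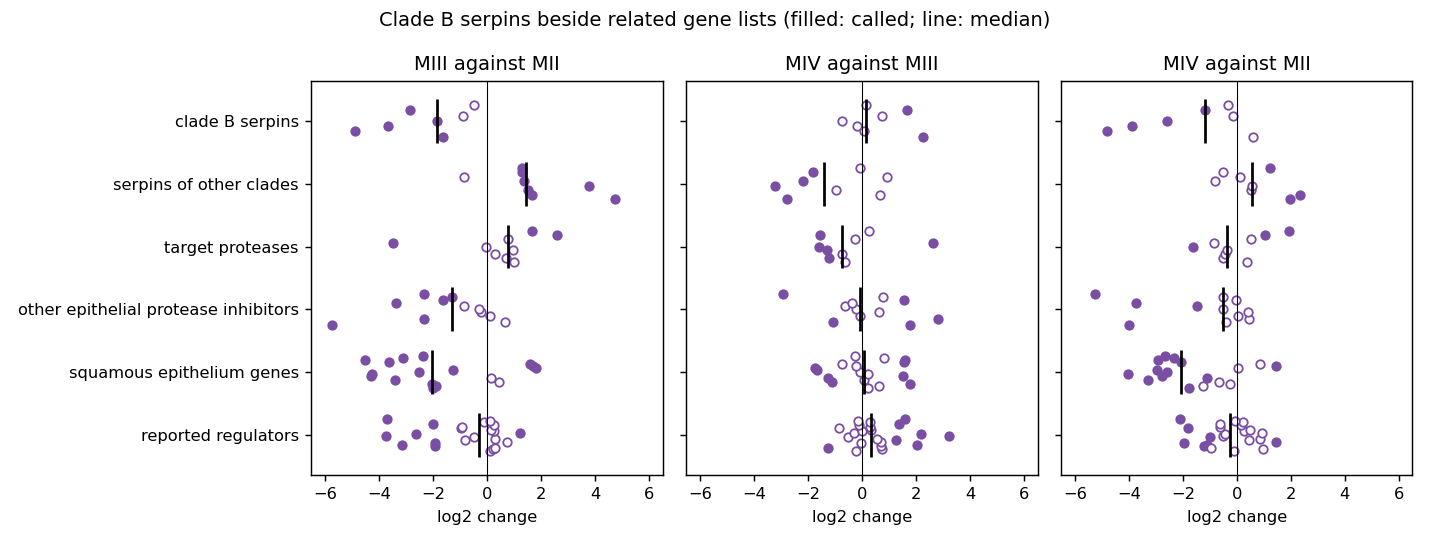
Log2 change of every tested gene in the clade B serpins and in 5 related lists, with filled points for called genes and a black line at the median of each list. In MIII against MII the medians of the clade B serpins (-1.84) and the squamous genes (-2.04) lie below 0 and that of the serpins of other clades (1.44) lies above it.

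The tested genes whose pair of log2 changes against MII lay nearest to that of SERPINB5, other serpins left out, were SCIN, TUBGCP4, LIMK2, TPMT and MOCOS, at distances of 0.0076 to 0.049 on the log2 scale over the 3 lines. TUBGCP4, for example, had mean signals of 2295 ± 151, 1243 ± 47.7 and 2108 ± 51.5 (MII, MIII, MIV; SD, n = 3). SCIN, the nearest, was dim, at 80.8 ± 12.8, 37.9 ± 21.2 and 75.6 ± 35.1 in the same order, so its place is loose. In all, 31 genes lay within a distance of 0.1.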

How the data were processed

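Each array was deposited as linear intensity values, which the submitters' processing notes ascribe to MAS5, with no version given in the sources used here. A mean trimmed to the central 96% lay between 500.068 and 500.072 for the 9 arrays, so the arrays had been scaled to a common level, and the median signal lay between 64.7 and 74.9. Of 54675 probe sets, 62 were controls, 41091 named 1 gene, 1801 several and 11721 none.

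Signals were tested as log2(signal + 18.3), the offset being the pooled 25th percentile. The probe set with the highest mean stood for its gene, and genes needed at least 3 of 9 arrays above the pooled median of 69.3. limma 3.58.1 under R 4.3.3 fitted 1 mean per line over the 9 arrays, with a trended variance prior and Benjamini-Hochberg adjustment over 12594 genes. Fold changes on this scale understate the change of dim genes. All probe sets of the members were also taken from a fit over 54613 probe sets without a filter. In simulated data with 200 changed genes, 87% to 91.5% of those with a true log2 change of 1.5 were called, depending on the comparison. With a true log2 change of 1, which is the fold minimum itself, 42% to 43% were called. Array number limits the precision.

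The members and lists were chosen with earlier results of these data known. Named were all members, up to 4 called genes with the largest change per list and comparison, and the 5 genes nearest in pattern to SERPINB5 and in position to each cluster. The same rule for SERPINB2 could not be applied. Alternatives were other offsets, normalizations, filters, priors, weights, probe set choices, thresholds, a replicate block and leaving out each array. Promoter windows are from RefSeq, GRCh38.p14, and gene positions from the same assembly.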

Additional observations from a re-analysis of the deposited data

How the results depend on the processing

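Of 447 recomputed log2 changes of the tested members, 441 kept their direction and their side of the threshold. The exceptions all concern MIV against MIII and values that were not called. With all probe sets of a gene averaged, SERPINB3 gave 0.11 and SERPINB13 -0.17, and leaving out 1 array moved SERPINB13 between -0.34 and 0.43 (-0.34 without MIII replicate 1, -0.01 without MIV replicate 1 and -0.17 without MIV replicate 2). With an offset of 1, SERPINB4 was called at -1.31. With probe sets free of the suffixes _s_at, _x_at and _a_at, 3 members could be tested, and 1, 0 and 1 were called in MIV against MIII, MIV against MII and MIII against MII. Without a fold minimum 7 members passed in MIV against MII, and with a 4-fold minimum at an adjusted p of 0.01, 1 passed in MIV against MIII and 3 in MIII against MII. Leaving out any 1 array kept the counts of 2, 4 and 5. Same-numbered arrays of different lines did not deviate together (r between -0.04 and 0.04 over 9 pairs), and with the replicate number as a block the counts were also 2, 4 and 5. Over all genes, 1604, 1025 and 1476 were called in that order, 893, 535 and 810 with the filter at the pooled 75th percentile (where SERPINB4 was not tested and 2, 3 and 4 of 6 members were called), 681 in MIV against MII with the offset at the pooled median, 6530, 5310 and 5946 without a fold minimum, and 515, 257 and 499 at the stricter threshold.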

Other observations

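The 10 tested genes nearest to SERPINB1 on chromosome 6 were taken, 5 on each side. In MIII against MII and in MIV against MII 0 of them were called, beside 11.7% and 8.14% of all tested genes. Their log2 changes in MIII against MII lay between -0.48 and 0.73. In MIV against MIII 1 was called, the transporter SLC22A23 at -1.52 ± 0.29, beside 12.7% of all genes. These counts are near the shares of all genes. On chromosome 18, the genes before SERPINB5 were ZCCHC2, PHLPP1, the apoptosis inhibitor BCL2, KDSR and VPS4B. None of these 5 was called in any comparison, which is also near those shares. In MIII against MII BCL2 had a log2 change of 0.99 ± 0.31 and PHLPP1 of -0.74 ± 0.09, on either side of 0.

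The tested genes after SERPINB8 were CDH19, DSEL, TMX3, RTTN and SOCS6. The cadherin CDH19 and the epimerase-like DSEL fell in MIV, with log2 changes of -3.55 ± 0.07 and -3.74 ± 0.31 against MIII and -3.35 ± 0.07 and -2.95 ± 0.31 against MII, and neither was called between MIII and MII. RTTN, a centriole protein, was higher than in MII by 1.99 ± 0.08 in MIII and 2.29 ± 0.08 in MIV. Whether neighbouring genes move together was not tested.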
